A study of Mus musculus with 20 samples.

Results

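This is an account of 29706 autosomal regions of open chromatin that carried a peak in all 12 ATAC-seq libraries of B-cell precursors from bone marrow (BM) and spleen, out of 101333 regions with a peak in any library. Because every library had a peak in each of these regions, presence or absence says nothing about them and only the strength of the peak can differ. Overlapping peaks (1 base or more) were joined across libraries, the largest fold enrichment of the region in a library was turned into a percentile over the 29706 regions of that library, and the 6 BM libraries were compared with the 6 spleen libraries.

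ATAC-seq reads chromatin that a transposase can enter. The 12 libraries came from untreated young female mice in 4 groups of 3, which were BM CSF1R+, BM CSF1R-, spleen CSF1R+ and spleen CSF1R- cells. CSF1R is the receptor for the macrophage growth factor M-CSF. The study describes the cells as B-cell precursors (BMBP), whereas the deposited labels call them macrophages, and the mouse strain of these libraries and any pooling of animals are not given in the sources used here. Among genes chosen to define B cells, the promoters of Pax5, Ebf1, Cd79a, Cd79b, Blnk, Vpreb3 and Pou2af1 had a peak in every library. Of 22 promoters of myeloid markers, 18 to 19 had a peak in a BM library and 7 to 8 in a spleen library, with a summed fold enrichment of 147 to 176 and 72.9 to 90.6. The whole lists held 65832 to 76530 peaks in a BM library and 43407 to 50392 in a spleen library. The counts of promoters with a peak were not adjusted for this. Csf1r, Lyz2, Adgre1 and S100a8 had a promoter peak in all 6 BM and in 0 spleen libraries, whether the cells were labelled CSF1R+ or CSF1R-, and Elane and Prtn3 were at 0 in all 12. Other myeloid promoters had a peak in all 12. Of these, Itgam had a fold enrichment of 3.45 to 4.82 in BM and 9.01 to 12.81 in spleen. Csf2ra had 12.62 to 13.65 and 15.01 to 16.78, whereas Cd68 had 3.99 to 6.41 and 2.53 to 3.48. These values are fold enrichments only, and the regions of Itgam, Csf2ra and Cd68 are given by a second measure further on. The part of myeloid cells in the differences given here was not tested. In these bulk samples, fewer cells with an open region and less opening in each cell cannot be told apart. The names of the peaks number the BM libraries 1 to 6 and the spleen libraries 7 to 12, so the order of the libraries and the tissue cannot be told apart either.

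B cells are made in the BM, where progenitors under the cytokine IL-7 open and rearrange their antigen receptor genes, and newly made cells then move to the spleen to finish maturation. The E2A proteins (encoded by Tcf3), which bind E-box sequences, and EBF1 start the B-cell program, and PAX5 holds the cells to it. PU.1 is shared with myeloid cells, while NF-kB and AP-1 factors act downstream of antigen receptor and survival signals.

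6 regions are printed as examples of called regions, 3 in each direction, that hold motifs whose shares are compared further on. Each sequence is the plus strand of the 200 bases around the summit in GRCm38 (mm10), 5′ to 3′, from the RefSeq genome of that build, and a match to a motif is a description and not a bound site. In the first 3, which were higher in BM, the capitals mark the E-box CAGCTG or the EBF motif (letters CCCNNGGGA), and in the last 3, which were higher in spleen, they mark the NF-kB motif (GGGANNTTC), the PU.1 motif (GAGGAAGT) and the AP-1 motif (TGANTCA), on either strand. The regions lie 20 kb from the start of S1pr1 (chr3:115734935-115735134), in an intron of Arpp21 (chr9:112207909-112208108), 18.1 kb from Prom2 (chr2:127559470-127559669), in an intron of Supt20 nearest to the start of Gm21958 (chr3:54724263-54724462), 256 kb from Nrp1 (chr8:128103477-128103676) and 47.0 kb from Cd44 (chr2:102948614-102948813).
S1pr1, E-box: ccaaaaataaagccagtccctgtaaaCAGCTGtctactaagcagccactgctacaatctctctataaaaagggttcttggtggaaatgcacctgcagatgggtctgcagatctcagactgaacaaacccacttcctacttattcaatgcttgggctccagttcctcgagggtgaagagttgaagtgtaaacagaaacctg
Arpp21, E-box: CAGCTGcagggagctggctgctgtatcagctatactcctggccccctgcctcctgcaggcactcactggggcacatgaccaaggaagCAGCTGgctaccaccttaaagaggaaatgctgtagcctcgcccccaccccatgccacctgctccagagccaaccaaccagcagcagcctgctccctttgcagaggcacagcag
Prom2, EBF: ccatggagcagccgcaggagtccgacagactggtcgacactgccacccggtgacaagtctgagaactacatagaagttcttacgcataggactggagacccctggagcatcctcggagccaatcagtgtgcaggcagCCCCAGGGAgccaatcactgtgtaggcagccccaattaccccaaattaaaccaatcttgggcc
Gm21958, NF-kB: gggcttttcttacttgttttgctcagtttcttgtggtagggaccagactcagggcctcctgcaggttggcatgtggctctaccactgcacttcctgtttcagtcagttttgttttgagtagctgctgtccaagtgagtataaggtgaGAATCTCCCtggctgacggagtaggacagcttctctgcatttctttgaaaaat
Nrp1, PU.1: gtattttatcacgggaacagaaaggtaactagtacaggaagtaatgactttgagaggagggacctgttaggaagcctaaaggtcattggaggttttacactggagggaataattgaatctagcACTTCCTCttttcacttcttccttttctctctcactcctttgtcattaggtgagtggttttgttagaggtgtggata
Cd44, AP-1: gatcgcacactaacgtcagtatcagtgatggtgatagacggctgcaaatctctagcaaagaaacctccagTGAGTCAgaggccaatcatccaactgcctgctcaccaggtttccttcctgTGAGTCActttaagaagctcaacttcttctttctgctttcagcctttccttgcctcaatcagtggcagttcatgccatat

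The deposited lists give 2 values that bear on strength. Fold enrichment is the number of reads piled up at the summit divided by the local background that the peak caller estimated, each with 1 added. Solving the fold enrichment together with the deposited −log10 p-value gave a number of summit reads within 0.1 of a whole number for at least 99.99% of the peaks of every library, and with it the background at each peak. That background was above the genome-wide value of the library in 65.2 to 67.6% of BM peaks and 69.6 to 74.1% of spleen peaks, and by construction the ratio falls where more reads lie around the summit. Calls were therefore counted by fold enrichment and also by the percentile of summit reads, an analysis that was added after seeing the data. The genome-wide background was 2.88 to 3.58 reads in BM and 2.11 to 2.75 in spleen libraries, and a shared region had a median of 102 to 132 summit reads in a BM library and 77 to 118 in a spleen library. Percentiles put the libraries on a common scale, and whether they remove every effect of depth was not tested.

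The strength of shared regions differed between BM and spleen far more than between CSF1R+ and CSF1R- cells. Across regions, the correlation of percentiles was 0.904 to 0.947 between BM libraries, 0.922 to 0.951 between spleen libraries and 0.711 to 0.759 between a BM and a spleen library. The median absolute difference between the tissues was 8.89 percentile points in CSF1R+ and 9.17 in CSF1R- cells, against 3.43 points between CSF1R+ and CSF1R- cells in BM and 3.39 in spleen, and the SD within a group of 3 had a median of 4.67 points. A region was called when limma gave an adjusted p under 0.05, the tissues differed by at least 10 points and the sign was the same in CSF1R+ and CSF1R- cells. At an adjusted p under 0.05 alone, 7510 regions (25.3%) were higher in BM and 7941 (26.7%) in spleen. By the full rule 5941 regions (20%) were higher in BM and 6263 (21.1%) were higher in spleen. In 7638 of the called regions the 6 BM and the 6 spleen values did not overlap, while 28.8% of all regions had no overlap. On summit reads the same rule gave 6522 regions (22%) in BM and 6945 (23.4%) in spleen. Both measures called 4017 regions (13.5%) higher in BM and 4028 (13.6%) higher in spleen, and they called opposite directions in 518. Ranking every library over the same regions balances gains against losses, so these counts cannot show whether either tissue is more open as a whole.

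The tissue shift was shared by CSF1R+ and CSF1R- cells. Fitted on their own libraries, CSF1R+ cells gave 4532 regions higher in BM and 4711 higher in spleen (15.3% and 15.9%), and CSF1R- cells gave 4628 and 4949 (15.6% and 16.7%). Of the regions called higher in BM in CSF1R+ cells, 98.1% had the same sign in CSF1R- cells and 70.2% were also called there. Among those higher in spleen, 96.5% had the same sign in CSF1R- cells. In the other direction, 96.5% of the BM calls and 98.3% of the spleen calls of CSF1R- cells had the same sign in CSF1R+ cells. These comparisons share no library, but whether CSF1R+ and CSF1R- cells were sorted from the same mice is not given in the sources used here. Over the 29706 regions the 2 shifts had a Pearson r of 0.880 (Spearman correlation 0.818), and 79.9% of all regions had the same sign. A test of the difference between the shifts (limma interaction) called 0 regions, with 2578 (8.68%) at an unadjusted p under 0.05, and on summit reads 0, with 2263 (7.62%).

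**Figure D1:**
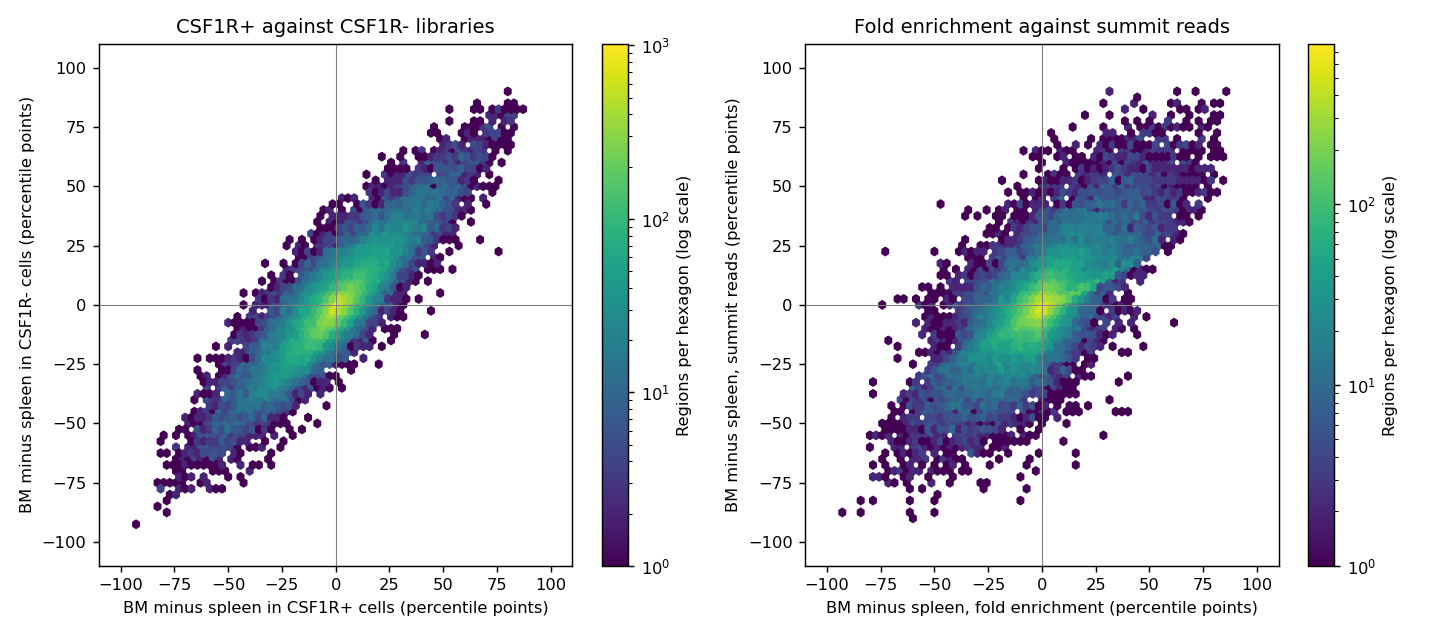
Left, the BM minus spleen difference in CSF1R+ cells (x, percentile points) against that in CSF1R- cells (y), and right, the difference by fold enrichment (x) against that by summit reads (y), with the color giving the number of the 29706 regions per hexagon on a log scale. The left cloud follows the diagonal (r = 0.880), and the right cloud is wider (r = 0.735), with the 518 regions of opposite call in the upper left and lower right.

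The extreme regions went from the bottom to the top of the ranking. They were picked as the largest differences among called regions without overlap by fold enrichment, so that separation was fixed by the choice. A region 81.7 kb from Rnf152, which encodes a ubiquitin ligase, lay at percentiles 1.44 to 13.4 in the 6 BM libraries (median 6.28) and 98.3 to 99.6 in the 6 spleen libraries (median 99.2). Its BM minus spleen difference was −92.4 ± 3.11 points (SE, limma, adjusted p = 1.1e-08), with 14 to 29 summit reads in BM and 262 to 398 in spleen. The tissues did not overlap on either measure. In the other direction, a region 131 kb from Hmgn3, a nucleosome-binding protein gene, lay at 92.8 to 96.8 in BM (median 95.6) and 3.23 to 30.5 in spleen (median 5.76), a difference of 85.2 ± 4.33 points (adjusted p = 4.81e-08). The spleen libraries spread more widely here, and its summit reads were 352 to 549 in BM and 14 to 37 in spleen.

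The region near S1pr1, the receptor by which lymphocytes leave tissues along a lipid gradient, lay at 88.2 to 96.2 in BM (median 93.4) and 6.42 to 19.7 in spleen (median 7.91). The difference was 82.0 ± 3.64 points (adjusted p = 2.85e-08), and it was 83.7 in CSF1R+ and 80.3 in CSF1R- cells. It is 1 of 15 shared regions nearest to S1pr1, of which 5 were higher in BM and 6 higher in spleen by fold enrichment, and 1 and 5 by summit reads. Near Prom2 the BM libraries lay at 98.9 to 99.9 and the spleen libraries at 3.59 to 38.1. Arhgap10, a GTPase-activating protein gene, had an intron region with 253 to 292 summit reads in BM and 10 to 16 in spleen (83.7 ± 3.11 points, adjusted p = 1.86e-08). Neither of these regions had overlapping tissues by fold enrichment, which their choice required.

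Among the strongest spleen regions, that in the intron of Supt20 lay at 7.34 to 27.8 in BM (median 17.0) and 96.2 to 98.6 in spleen (median 98.0), with 23 to 40 and 165 to 243 summit reads. That near Nrp1, a neuropilin gene, had 18 to 36 summit reads in BM and 100 to 191 in spleen (−79.7 ± 3.29 points, adjusted p = 1.98e-08). A coding exon of Rai1 differed by −78.1 ± 3.15 points, but its summit reads were 65 to 121 in BM and 119 to 244 in spleen, so that the tissues overlapped on reads and not on fold enrichment. Of the 12 regions plotted in each direction, those of Gstm7, Ildr1 and Aim2 were promoters, and the others lay over 1000 bases from a start.

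**Figure D2:**
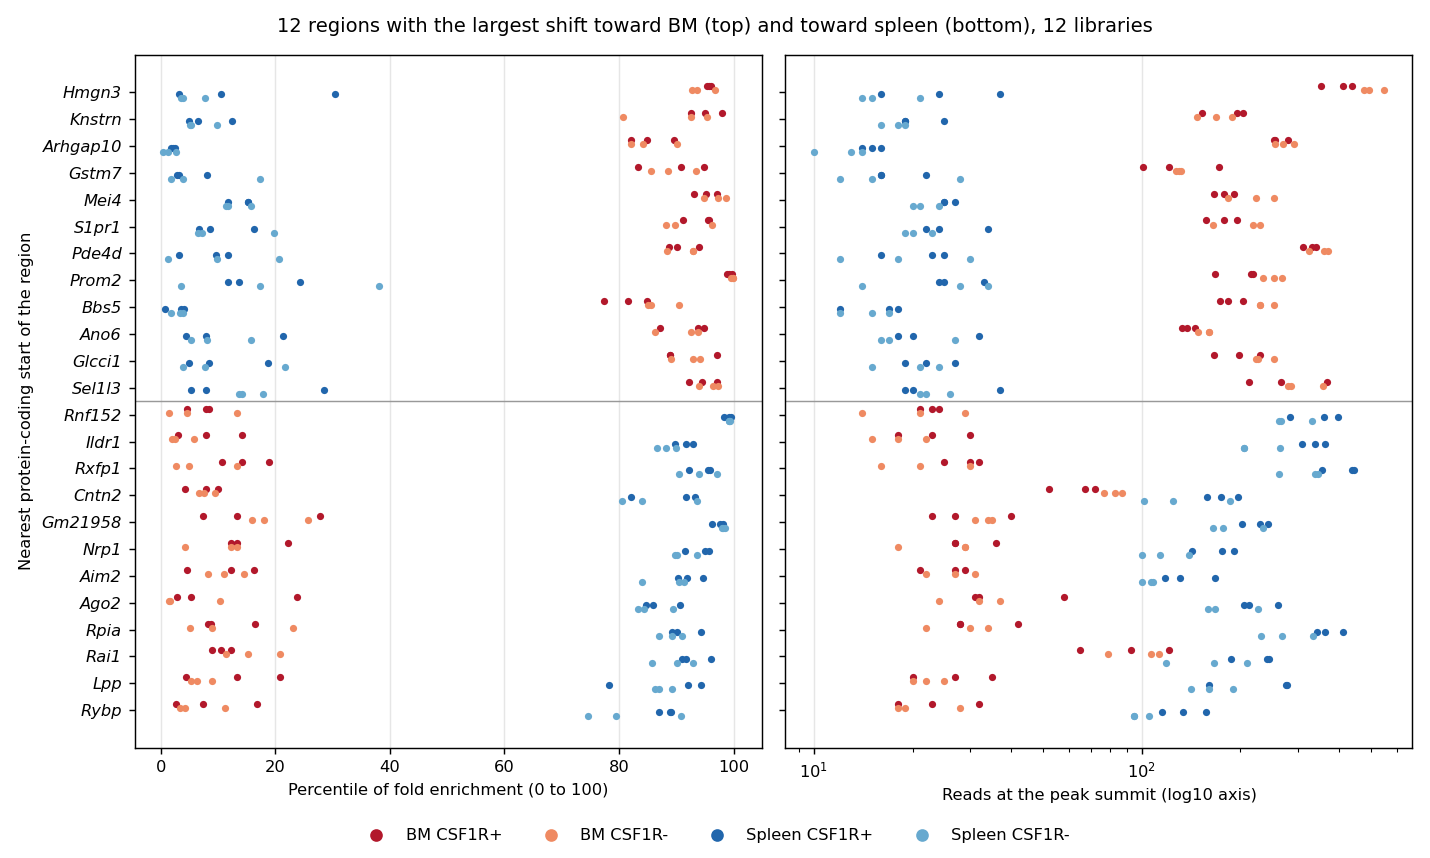
Each row is a region, named by its nearest protein-coding start, and each point a library, colored by group, with the percentile of fold enrichment on the left (0 to 100) and summit reads on the right (log10 axis). The 12 upper regions lie at 77.3 or above in every BM library and at 38.1 or below in every spleen library, and the 12 lower regions show the reverse order. The regions were picked without overlap by fold enrichment, so the separation on the left was fixed by that choice.

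Promoters differed less than distal regions. Within 1000 bases of a start, 12.9% of 10116 regions were higher in BM and 13.1% higher in spleen, against 23.6% and 25.2% of 19590 distal regions. On summit reads the shares were 15.8% and 11.4% of promoters and 25.1% and 29.6% of distal regions. The called share rose from 24.5% within 100 bases of a start to 54.0% over 100 kb away, and by mean percentile it was 27.2% below 20, 55.5% between 40 and 60 and 12.3% over 80. Called promoters with large shifts toward BM were those of Gstm7, a glutathione transferase gene (percentiles 83.2 to 94.8 in BM and 1.73 to 17.3 in spleen), and Ddit4l, an inhibitor of mTOR signaling (84.3 to 96.7 and 2.06 to 24.3). Toward spleen they were those of Ildr1 (2.01 to 14.2 in BM and 86.5 to 93.0 in spleen) and Aim2, a sensor of cytosolic DNA (4.55 to 16.3 and 84.1 to 94.6). Both tissues were apart in all 4 promoters on both measures, and by fold enrichment their choice as the largest differences favored this. The promoter of Slc52a3, a riboflavin transporter gene, ranked lower in BM by fold enrichment (4.05 to 15.6 in BM and 69.2 to 83.6 in spleen), yet it had 165 to 224 summit reads in BM and 116 to 188 in spleen. The median background there was 32.7 reads in BM and 6.65 in spleen, and its summit-read difference of 3.39 ± 2.18 points was not called (adjusted p = 0.18).

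Neighbouring regions showed how far the 2 measures part. Of 971 pairs of neighbouring called regions within 5 kb of each other, 82.9% were called in opposite directions by fold enrichment, whereas 80.1% of 1292 such pairs were called in the same direction by summit reads. Beyond 5 kb the pairs called by fold enrichment had the same direction in 54.4% of 11214 cases, and by summit reads in 64.7% of 12156. The share by summit reads fell steadily from 84.0% within 2 kb to 59.0% over 100 kb. These pairs are counts of regions on 1 genome and not replicates.

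**Figure D3:**
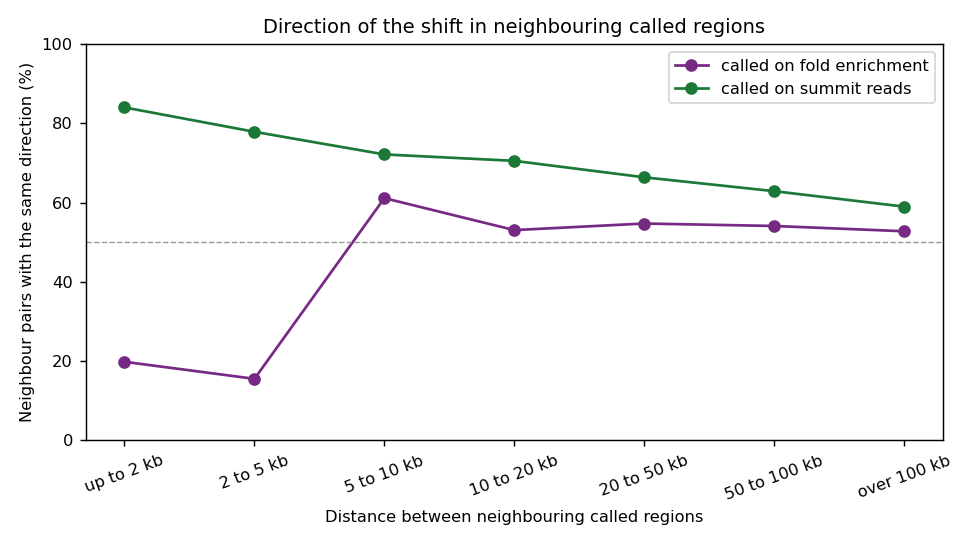
The share of neighbouring called regions with the same direction of shift (y, %) by the distance between them (x, from up to 2 kb to over 100 kb), for calls by fold enrichment and by summit reads, with a dashed line at 50%. Fold enrichment gives 19.8% within 2 kb and 15.5% at 2 to 5 kb, while summit reads give 84.0% and 77.9%.

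Of 67 shared regions nearest to a gene of the early B-cell list, 14 were higher in BM and 17 in spleen by fold enrichment (20% and 21.1% of all regions), 30 and 11 by summit reads (22% and 23.4% of all), and 14 and 7 by both (13.5% and 13.6% of all). The median difference was 0.22 points by fold enrichment and 7.49 by summit reads, against −0.15 and −0.32 over all regions. By fold enrichment, Vpreb3 had 0 higher in BM and 2 in spleen of 2 (0 and 0 by summit reads) and Dntt 0 and 2 of 3 (1 and 0). Sox4 had 0 and 2 of 4 (4 and 0) and Tmsb10 0 and 2 of 7 (0 and 4). Toward BM, Cecr2 had 1 and 0 of 4 (3 and 0), Flt3 1 and 0 of 3 (3 and 0), Enpep 1 and 0 of 2 (2 and 0) and Cd24a 1 and 0 of 5 (1 and 0). Lef1 and Myb had 1 in each direction. The intron region of Arpp21, a gene of lymphoid progenitors, had 705 to 962 summit reads in BM and 17 to 36 in spleen, and lay at 95.3 to 98.1 and 6.63 to 40.8 by fold enrichment (72.1 ± 4.85 points, adjusted p = 2.55e-07). Akap12, a scaffold of protein kinase A, had a region 15.5 kb away at 83.3 to 96.2 in BM and 6.32 to 35.6 in spleen. This was the 1 region higher in BM by fold enrichment among the 5 of Akap12, of which 4 were higher in spleen, and summit reads called 2 in BM and 3 in spleen. An intron region of Erg, a factor of blood progenitors, had 243 to 359 summit reads in BM and 19 to 43 in spleen (62.1 ± 5.24 points, adjusted p = 1.48e-06). Erg had 4 regions, of which 1 was higher in BM and 1 in spleen by fold enrichment (down to −48.0 points), and 3 and 1 by summit reads. The tissues did not overlap in any of these regions of Arpp21, Akap12 and Erg. They were picked as the largest differences of the list, so the choice favored separation, and 28.8% of all regions had no overlap.

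Il7r, which encodes the receptor that carries the IL-7 signal, had 4 shared regions, of which 3 were higher in BM on both measures. Its promoter had 96 to 139 summit reads in BM and 31 to 62 in spleen, with percentiles of 28.6 to 43.0 and 18.4 to 29.5 that overlapped by fold enrichment (12.1 ± 3.4 points, adjusted p = 0.01). The region 42.3 kb away lay at 43.1 to 62.3 in BM and 2.06 to 31.5 in spleen, with no overlap, and the fourth, 45.1 kb away, differed by −7.75 ± 2.92 points and was not called. Cd93, a surface protein of immature B cells, had 451 to 649 summit reads at its promoter in BM and 122 to 230 in spleen (21.1 ± 4.17 points by fold enrichment, adjusted p = 0.00111). Of the 5 regions of Cd93, 2 were higher in BM and 2 in spleen by fold enrichment, and 2 and 1 by summit reads. That 92.1 kb away lay at 59.6 to 73.6 in BM and 13.8 to 36.7 in spleen (40.4 ± 4.12 points, adjusted p = 6.65e-06), with 97 to 155 and 25 to 40 summit reads. Regions 17.7 and 10.8 kb from Cd93 ranked lower in BM by fold enrichment (−39.5 and −38.5 points), and on summit reads they had 169 to 276 and 48 to 82 in BM against 223 to 367 and 46 to 93 in spleen.

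Of 253 regions near the transcription factors that set B-cell identity, 45 were higher in BM and 62 in spleen by fold enrichment, 46 and 86 by summit reads, and 23 and 41 by both. Over all regions the shares were 20% and 21.1%, 22% and 23.4%, and 13.5% and 13.6%. An intron region of Tcf4, an E protein, had 300 to 484 summit reads in BM and 20 to 38 in spleen (74.9 ± 3.83 points, adjusted p = 4.91e-08). Intron regions of Bach2, a repressor that keeps B cells from becoming plasma cells (−71.9 ± 4.04 points, adjusted p = 7.89e-08), and of Ets1 (−68.9 ± 4.83, adjusted p = 3.44e-07) were higher in spleen. None of the 3 had overlapping tissues, which their choice as the largest differences of the list favored. By fold enrichment Tcf4 had 4 regions higher in BM and 3 in spleen of 18 (4 and 7 by summit reads), Bach2 5 and 4 of 17 (2 and 8) and Ets1 5 and 2 of 10 (1 and 3). Ebf1 had 8 shared regions, of which 3 were higher in BM and 4 in spleen by fold enrichment and 0 and 5 by summit reads, and that 64.9 kb into the gene lay at 0.65 to 16.9 in BM and 69.5 to 83.4 in spleen, with 15 to 36 and 176 to 272 summit reads (−70.9 ± 3.93 points, adjusted p = 7.53e-08). At the Ebf1 promoter the measures disagreed in sign, with 11.7 points by fold enrichment and −8.88 by summit reads (268 to 311 reads in BM and 303 to 453 in spleen). Pax5 had 10 shared regions, of which 1 was higher in BM and 3 in spleen by fold enrichment and 2 and 4 by summit reads. That 95.9 kb into the gene was higher in spleen on both measures, with percentiles of 7.65 to 35.0 in BM and 34.1 to 67.9 in spleen that overlapped slightly (−36.3 ± 5.63 points, adjusted p = 0.000182). At the Pax5 promoter all 12 libraries ranked below the 10th percentile, at 0.89 to 4.38 in BM and 4.55 to 9.77 in spleen, and the difference of −5.77 points was under the minimum.

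For mature B-cell genes the measures gave different directions. Of 108 regions, 36 were higher in BM and 21 in spleen by fold enrichment, but 10 and 47 by summit reads, and 9 and 20 by both. Over all regions the shares were 20% and 21.1%, 22% and 23.4%, and 13.5% and 13.6%. A region 8.21 kb from Cr2, the complement receptor of mature B cells, had 27 to 57 summit reads in BM and 123 to 194 in spleen (−47.9 ± 4.06 points by fold enrichment, adjusted p = 1.52e-06). It was higher in spleen with no overlap, which its choice for a large difference favored. The other 3 regions of Cr2 were higher in BM by fold enrichment (up to 12.9 points) and none of them was called by summit reads. A region 19.3 kb from Cd83, an activation marker, lay at 77.4 to 89.0 in BM and 33.6 to 46.4 in spleen by fold enrichment, while its summit reads were 280 to 437 and 281 to 437.

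The genes of MHC class II presentation, which load and display peptide antigen, differed most between the measures. Of their 40 regions, 17 were higher in BM and 10 in spleen by fold enrichment, whereas 0 were higher in BM and 32 in spleen by summit reads, with a median of 4.23 and −37.3 points. Over all regions 20% and 21.1% were called by fold enrichment and 22% and 23.4% by summit reads, with medians of −0.15 and −0.32 points. Regions of H2-DMb2, H2-Ob and H2-Ab1 lie near each other on the genome, so the regions of this list are not independent. Outside the H2 genes, Cd74 had 1 and 0 of 4 by fold enrichment (0 and 4 by summit reads) and Ciita 2 and 2 of 5 (0 and 2). Ctss had 1 and 1 of 3 (0 and 2), Rfxap 0 and 1 of 2 (0 and 1) and Rfx5 0 and 0 of 1 (0 and 0). The intron region of H2-Ab1, which encodes a class II beta chain, lay at 65.8 to 78.6 in BM and 26.2 to 35.6 in spleen (39.97 ± 3.32 points, adjusted p = 1.27e-06). The same region had 101 to 142 summit reads in BM and 364 to 540 in spleen (−44.8 ± 1.97 points, adjusted p = 2.91e-11), and a median background of 6.10 and 44.4 reads. The tissues did not overlap on either measure, in opposite orders, and by fold enrichment the choice of a large difference favored this. H2-DMb2, a chain of the peptide-loading protein H2-DM, had the same pattern at its promoter, with 125 to 201 summit reads in BM, 338 to 559 in spleen, and a background of 11.1 and 49.3. Both measures placed a region 12.6 kb from H2-Oa higher in spleen, at 14.9 to 29.2 in BM and 81.8 to 87.9 in spleen (−63.0 ± 3.37 points, adjusted p = 6.1e-08).

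Of 102 regions near genes of homing and adhesion, 22 were higher in BM and 32 in spleen by fold enrichment (20% and 21.1% of all regions), 16 and 52 by summit reads (22% and 23.4% of all), and 8 and 24 by both (13.5% and 13.6% of all). With regions assigned by gene body or 10 kb around it, the counts of 72 regions were 16 and 16 by fold enrichment and 11 and 30 by summit reads. The 11 regions of Cd44, an adhesion receptor for hyaluronan, included 6 that were higher in spleen and 0 in BM by fold enrichment, against 7 and 2 by summit reads, and the region printed above lay at 12.97 to 27.5 in BM and 60.9 to 84.1 in spleen (−49.6 ± 3.67 points, adjusted p = 5.13e-07). An intron region of Itgb1, the shared beta chain of adhesion integrins, was higher in BM, at 80.9 to 93.3 against 10.0 to 55.4 (53.2 ± 7.10 points, adjusted p = 5.52e-05). Neither overlapped between the tissues, which the choice of large differences favored. Cxcr4, the receptor that holds precursors in the marrow, had 11 regions, of which 2 were higher in BM and 3 in spleen by fold enrichment and 3 and 1 by summit reads. At its promoter the difference was −9.73 ± 3.49 points by fold enrichment and 0.61 ± 1.30 by summit reads, and neither was called.

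Of 128 regions near NF-kB and AP-1 genes, 23 were higher in BM and 29 in spleen by fold enrichment, 18 and 46 by summit reads, and 12 and 24 by both, where all regions gave 20% and 21.1%, 22% and 23.4%, and 13.5% and 13.6%. A region 7.88 kb from Rel, an NF-kB subunit of B cells, had 21 to 45 summit reads in BM and 239 to 372 in spleen (−62.1 ± 5.75 points, adjusted p = 3.02e-06), and of the 5 regions of Rel 2 were higher in spleen and 0 in BM by fold enrichment, and 5 and 0 by summit reads. A region 18.5 kb from Tnfaip3, an inhibitor of NF-kB, was higher in BM, with 152 to 293 against 24 to 50 (66.1 ± 4.25 points, adjusted p = 1.87e-07). Of the 10 regions of Tnfaip3, 2 were higher in BM and 5 in spleen by fold enrichment, and 1 and 8 by summit reads. Of 172 regions near genes of B-cell receptor signaling, 47 were higher in BM and 44 in spleen by fold enrichment, 40 and 56 by summit reads, and 30 and 29 by both, against the same shares of all regions. Those of the adaptor Pik3ap1 and the kinase Blk with the largest shifts were higher in BM (57.0 and 46.4 points), and that of the lipid phosphatase Inpp5d was higher in spleen (−47.4 points). By fold enrichment Pik3ap1 had 6 regions in BM and 1 in spleen of 11 (3 and 6 by summit reads), Blk 2 and 1 of 6 (1 and 2) and Inpp5d 2 and 6 of 10 (1 and 4). Plasma cell markers, of which Irf4 and Prdm1 drive antibody secretion, had 6 of 42 regions higher in BM and 15 in spleen by fold enrichment, 9 and 15 by summit reads, and 5 and 10 by both, again against these shares. An intron region of Irf4 had 37 to 87 summit reads in BM and 304 to 475 in spleen. Irf4 had 12 regions, 1 higher in BM and 5 in spleen by fold enrichment and 1 and 8 by summit reads. Prdm1 had 7, with 0 and 4 on each measure, and both genes are also in the list of transcription factors. Of the others, Slamf7 had 3 and 2 of 5 (3 and 1 by summit reads) and Xbp1 0 and 2 of 6 (1 and 1). Creb3l2 had 0 and 1 of 5 (1 and 1), Sdc1 0 and 0 of 3 (2 and 0) and Derl3 0 and 1 of 2 (0 and 0). Jchain had 1 and 0 of 1 (0 and 0) and Tnfrsf17 1 and 0 of 1 (1 and 0). Of 64 regions near cell cycle genes, 9 were higher in BM and 13 in spleen by fold enrichment, 13 and 12 by summit reads, and 7 and 4 by both. Of 31 near housekeeping genes, the counts were 3 and 2, 3 and 4, and 2 and 2. By fold enrichment 34.4% of the cell cycle and 16.1% of the housekeeping regions were called in either direction, against 41.1% of all. By direction, the shares of all regions were 20% and 21.1% by fold enrichment, 22% and 23.4% by summit reads, and 13.5% and 13.6% by both.

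Of 42 regions near myeloid markers, 8 were higher in BM and 9 in spleen by fold enrichment, 13 and 8 by summit reads, and 6 and 4 by both. Of 20 near T and NK markers the counts were 5 and 4, 7 and 4, and 4 and 2. Of 8 near erythroid and megakaryocyte markers they were 3 and 1, 3 and 2, and 3 and 1. Over all regions the shares were 20% and 21.1% by fold enrichment, 22% and 23.4% by summit reads, and 13.5% and 13.6% by both. Itgam had 3 shared regions, 1 higher in BM and 2 in spleen by fold enrichment, and 1 and 0 by summit reads. Csf2ra had 3, with 1 and 1 by fold enrichment and 1 and 0 by summit reads, and the 1 region of Cd68 was called on neither measure. The 1 shared region of Csf1r, in an intron, lay at 36.4 to 53.7 in BM and 36.5 to 51.1 in spleen by fold enrichment (5.37 ± 4.15 points, adjusted p = 0.302), and the tissues overlapped. Its summit reads were 110 to 164 in BM and 34 to 47 in spleen, with no overlap and a summit-read difference of 30.5 ± 3.18 points (adjusted p = 4.38e-07). The BM minus spleen difference of this region by fold enrichment was 9.52 in CSF1R+ and 1.21 in CSF1R- cells. Of 15 promoters of T and NK markers, 4 to 9 had a peak in a BM library and 3 to 4 in a spleen library, with a summed fold enrichment of 27.7 to 51.7 and 22.7 to 28.5, and the part of such cells was not tested. Those of Cd3e, Cd3d, Cd3g, Cd4, Cd8a and Gzmb had no peak in any library, while Tcf7 and Lck had one in all 12. Gata3 had one in 6 BM and 2 spleen libraries, and Tbx21 in 2 BM and 6 spleen libraries. Thy1 and Cd247 had one in 5 BM libraries each, Nkg7 in 4 and Klrb1c and Bcl11b in 2 each, with 0 spleen libraries for these genes. For erythroid and megakaryocyte markers, 5 to 6 promoters had a peak in a BM library and 3 to 4 in a spleen library, with a summed fold enrichment of 49.1 to 63.2 and 28.99 to 47.8, and their part was not tested either. Like those of myeloid markers, these promoter counts were not adjusted for the longer peak lists of the BM libraries.

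**Figure D4:**
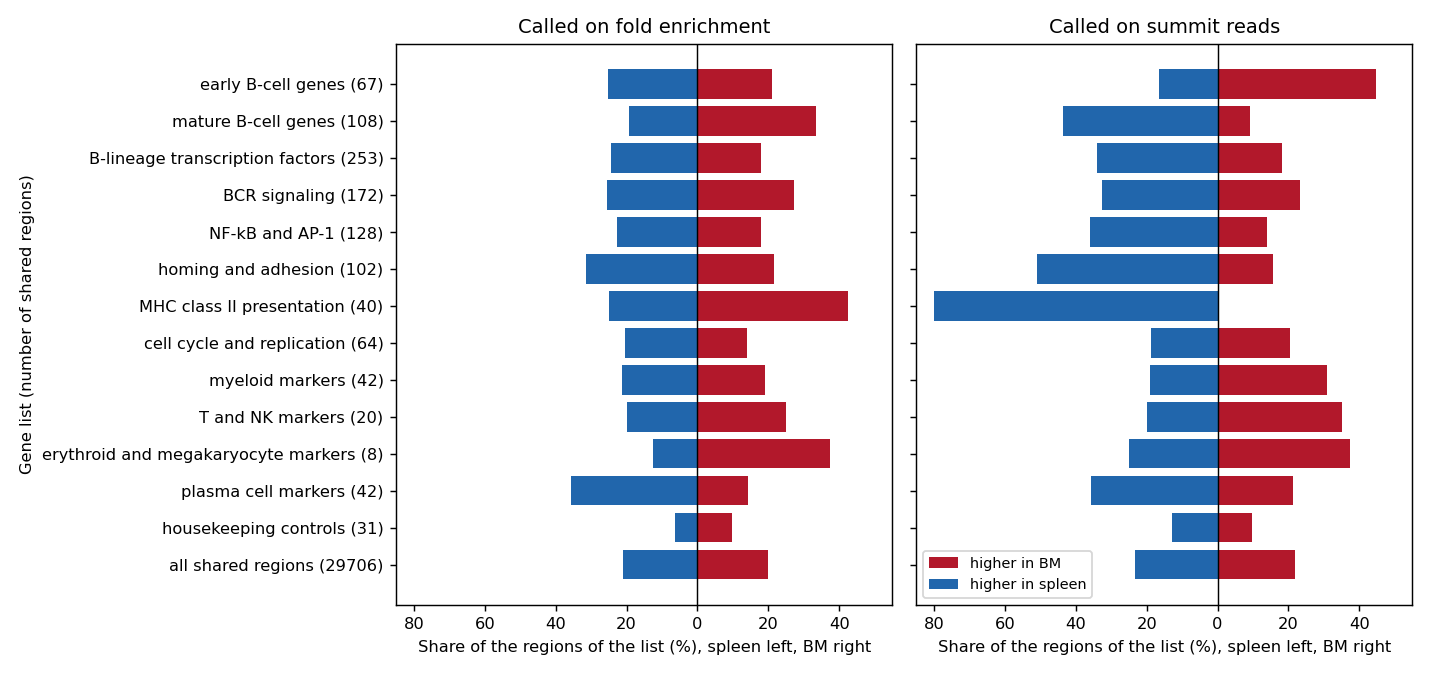
The share of the shared regions near the genes of each list (number of regions in brackets) that were called higher in spleen (bars to the left, %) or in BM (bars to the right, %), by fold enrichment and by summit reads. The bars of MHC class II genes change sides between the panels (17 and 10 of 40 regions against 0 and 32), and the lowest row gives all shared regions.

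The sequence at the summit differed between the directions. Of 26 motifs searched on both strands of the 200-base window, the E-box CAGCTG differed most, and it was found in 27.9% of distal regions higher in BM, 11.8% of those higher in spleen and 17.7% of all distal regions. Among regions called on both measures the shares were 32.1% and 9.65%. The E-box CAGGTG was found in 23.5% and 18.1% (19.6% of all), and no match of it shared a base with a CAGCTG match in the 852 windows that held both. The EBF motif was found in 7.08% and 4.01% (5.07% of all). On both measures CAGGTG was found in 25.6% and 16.5% and EBF in 8.15% and 3.37%. In promoters the order of these motifs was the reverse, with CAGGTG in 12.9% of those higher in BM and 16.4% of those higher in spleen (11.98% of all promoters) and EBF in 5.88% and 7.39% (5.55% of all), while CAGCTG was found in 15.97% and 11.76% (10.99% of all). Of 187 distal regions with both CAGCTG and the EBF motif, 52.9% were higher in BM and 15.0% in spleen, with a median difference of 12.5 points, whereas of 15316 with neither, 20.3% were higher in BM and 27.3% in spleen.

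Other motifs had larger shares among distal regions higher in spleen. The PU.1 motif was found in 13.1% of distal regions higher in spleen and 9.46% of those higher in BM (10.8% of all), AP-1 in 8.63% and 6.09% (7.0% of all) and NF-kB in 3.81% and 2.59% (2.82% of all). The ERG motif (ACAGGAAG) was found in 11.4% and 8.92% (9.48% of all), which was 10.52% and 9.75% by the calls of CSF1R+ cells alone and 12.26% and 8.75% by those of CSF1R- cells, a difference between the cells that was not tested. The share was higher among spleen regions also for the ETS-IRF composite (GGAANNGAA), at 12.03% and 10.15% (10.95% of all), and an ISRE-like motif (GAAANNGAA), at 10.3% and 8.59% (9.18% of all). Among distal regions called on both measures, PU.1 was found in 14.4% of those higher in spleen and 9.27% of those higher in BM, AP-1 in 9.06% and 6.1%, and NF-kB in 4.05% and 2.55%. ERG was found in 12.1% and 9.36%, ETS-IRF in 12.65% and 9.64% and the ISRE-like motif in 11.15% and 8.08% of these. PU.1 and ETS-IRF matches shared a base in 167 of the 327 windows with both. CTCF (AGNNGGCGC) was found in 5.43% of the spleen regions and 7.79% of the BM regions, against 8.85% of distal regions that were not called. Matches of the EBF and NF-kB motifs shared a base in 26 of the 67 windows with both. The percentile of distal regions rose with GC content in BM (Spearman correlation 0.084 to 0.111 over regions) and hardly in spleen (0.0040 to 0.021). With percentiles taken within 20 bins of GC content, the CAGCTG share still differed by 14.1 points between BM and spleen regions, against 16.0 without the bins. The ETS-IRF share differed by −0.91 points within the bins and −1.89 without, and the ISRE-like share by −0.68 and −1.68, while by summit-read calls these differences were −3.38 and −2.93. In 100-base windows the NF-kB share differed by −0.59 points, the ISRE-like share by −0.81 and the EBF share by 1.47, against −1.22, −1.68 and 3.07 in 200 bases.

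**Figure D5:**
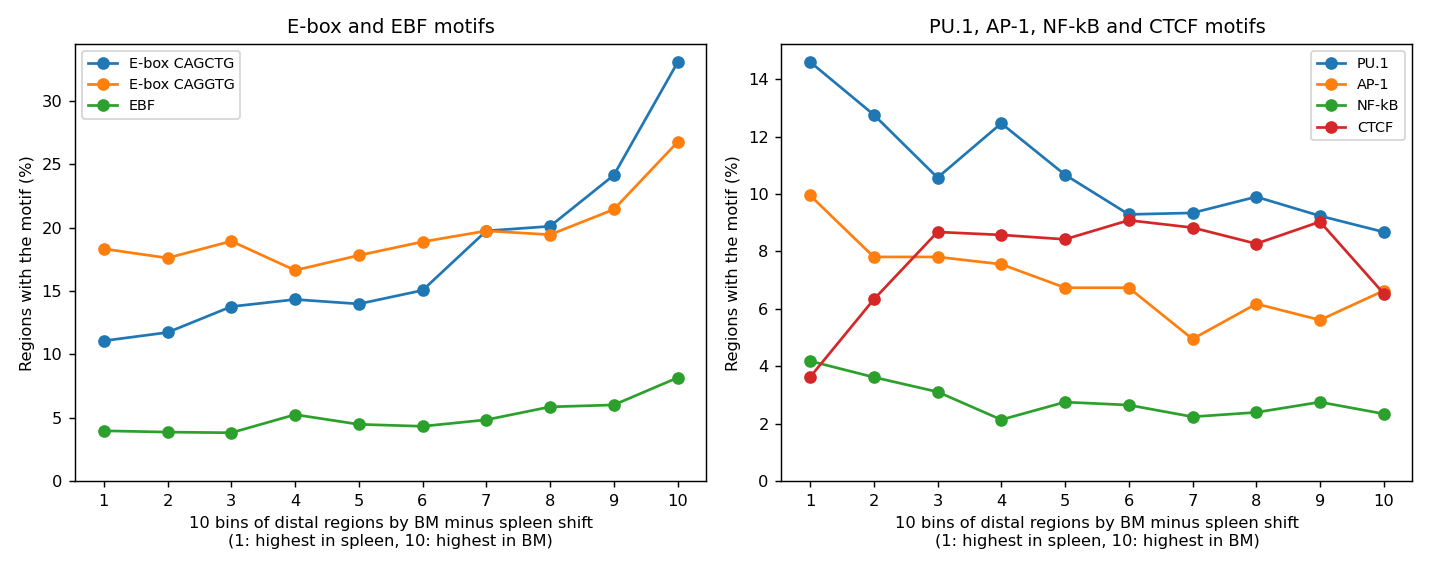
Distal regions were sorted by their BM minus spleen difference into 10 bins (x, 1 highest in spleen and 10 highest in BM, 1959 regions each), and the y axes give the share of regions with each motif (%). CAGCTG goes from 11.1% to 33.0% and PU.1 from 14.6% to 8.68% from bin 1 to bin 10, and CTCF is at 3.62% in bin 1 and 6.53% in bin 10.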

How the data were processed

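ATAC-seq was performed on 12 libraries, 3 per group, and the report uses only these. Per the study's methods, the authors used cutadapt for trimming, BWA for alignment to mm10, removed duplicate, multiply mapped and blacklisted reads, and called peaks with MACS. A list was deposited for every library, and the options of MACS are not given in the sources used here. The deposited lists hold, for each peak, the fold enrichment (a ratio of summit pileup to background) and 2 significance columns, −log10 p-value and −log10 q-value, without read counts. Summit reads and background were solved from the first 2. Regions were annotated with the nearest protein-coding start of the GENCODE basic annotation of GRCm38.

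Percentiles were compared with limma 3.58.1 (R 4.3.3; group means, trend), with Benjamini-Hochberg adjustment over all 29706 regions. The labels do not say that replicates are separate mice, or that CSF1R+ and CSF1R- cells came from separate mice. The p-values therefore measure the spread between these samples only. The fit was tested on simulated data. Named regions were the 12 with the largest non-overlapping difference in each direction, up to 4 per gene list, the 6 largest promoters per direction, and all regions of Csf1r, Pax5, Ebf1, Il7r, Cxcr4 and Cd93. Regions, lists and motifs were chosen with earlier results of these data known, so no list was tested. Other scalings, filters, windows, a replicate block and each library left out were tried, and summit reads and isolated regions were added after seeing the data. Sex chromosomes, regions lacking a peak in any library, and the single-cell samples were not used. Regions with a peak in 11 of 12 libraries (3394) had a median mean fold enrichment of 7.73, against 13.2 in all 12.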

Additional observations from a re-analysis of the deposited data

How the results depend on the processing

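The counts of regions higher in BM and in spleen moved by over 1.5 times under 3 settings. They were 2875 and 2901 when each library's peak covered 0.5 or more of the region, 3303 and 3301 at a minimum of 20 points, and 796 and 820 of the 4364 regions with no other region within 10 kb, a setting added after seeing the data, and these test fewer regions or ask for more. Leaving out 1 library gave 5683 to 5841 and 6026 to 6259 and kept 93.4 to 94.4% of calls. The interaction was called in 0 to 2 regions, and the 2 came without the third spleen CSF1R- library. The same sign was found for 97.0 to 97.9% of CSF1R+ calls and 96.6 to 98.4% of CSF1R- calls.

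The numbers of the replicates were not taken to pair the libraries. The 18 pairs with the same number had correlations of −0.022 to 0.146 of their deviations from group means, of which 4 were over 0.1 where every one was required to be, against −0.156 to 0.0525 for other numbers. Within a tissue, same-number pairs were at 0.0345 to 0.146. Whether cells of the same tissue and number came from 1 mouse was not tested, and the fit took the 12 libraries as independent. The block used below joined equal numbers across the tissues. With a replicate block the counts were 5968 and 6292, and the interaction stayed at 0.

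On summit reads 65.9% of the calls were kept, 518 were opposite and 4904 were added. By the percentile of the q-value 75.6% were kept, 168 were opposite and 4089 were added. The same-sign share was 98.7% of CSF1R+ and 98.6% of CSF1R- calls on summit reads, and 96.9% for CSF1R+ calls on quantile-normalized log2 fold enrichment. The called share was 27.3% of promoters and 49.7% of distal regions with promoters within 2500 bases, 27.2% and 54.7% on summit reads, and 55.2% of distal regions by q-value. With regions assigned by gene body or 10 kb around it, homing and adhesion genes had 16 higher in BM and 16 in spleen of 72 by fold enrichment. NF-kB and AP-1 genes had 13 and 16 of 94, and early B-cell genes 14 and 22 of 61 with a median of −3.49 points. All lists together had 213 and 214 of 942. The BM minus spleen difference in the share with CAGCTG was 16.0 points, 10.8 in 100-base windows, 14.1 within GC bins, 19.4 on summit reads and 22.4 on both measures. That of CAGGTG was 8.79 on summit reads and 9.13 on both, that of EBF 1.47 in 100-base windows, 4.2 on summit reads and 4.78 on both, and that of PU.1 −5.14 on both. Signs turned on summit reads at Cd83 (−2.21 points), H2-Ob (−8.48), H2-Ab1 (−44.8), H2-DMb2 (−30.0), Ccnd3 (1.63), Cd247 (9.63), B2m (−0.38), Slc52a3 (3.39), the Cxcr4 region 9.29 kb from the start (20.7), the Ebf1 promoter (−8.88) and the Pax5 region 39.1 kb from the start (−3.06). By q-value they turned at H2-Ab1 (−30.7), H2-DMb2 (−17.3), the same Cxcr4 region (15.7) and the Ebf1 promoter (−6.74), and with the mean of the peaks at the Cxcr4 region 22.7 kb away (9.94). The median local background differed between the tissues at H2-Ab1, H2-DMb2 and Slc52a3, as given above, and the cause of the turned signs was not tested at any region.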

Other observations

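Of 1498 genes with at least 2 regions called on both measures, 768 (51.3%) had regions higher in BM and regions higher in spleen, a share that was not set against that of regions with unrelated directions. Of 87 genes with at least 5 such regions, 0 had all of them higher in BM and 7 had all of them higher in spleen, which were Abcg1, Ankrd44, Bmp2k, Cd44, Ly86, Mdfic and Plxnc1, named after their values were seen. Foxp1, a forkhead factor of B cells, had 29 shared regions, 4 higher in BM and 8 higher in spleen, and it too was named after its values were seen.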
